A study of Sus scrofa with 8 samples.

Results

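The genes described here are the LIN28 paralogs, the oncofetal HMGA and IGF2BP genes, and the MYC family with its partner MAX. They were taken from a list of 10 symbols as the entries of the count table whose identifier carries that symbol in the pig Ensembl gene names. This gave LIN28A, LIN28B, MYC, MYCN, MAX, HMGA1, IGF2BP1 and IGF2BP3, which are 8 genes of 24358 identifiers in the table. MYCL and HMGA2 had no named identifier. For these 2 genes the unnamed identifier that covers the RefSeq gene of that name was used, so they rest on position in the pig assembly. The text says so where a list that counts them is described.

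LIN28A and LIN28B are RNA-binding proteins of early embryonic cells that bind let-7 precursors and block their maturation. Mature let-7 represses mRNAs of growth genes, among them LIN28 itself, MYC family genes, HMGA2 and the IGF2BP genes. MYC, MYCN and MYCL bind DNA as dimers with MAX and drive genes of growth and ribosome production, and MYC together with LIN28A is among the factors used to reprogram somatic cells.

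The study asked what the interferon-responsive transcription factor IRF-1 does in porcine induced pluripotent stem cells (piPSCs), using RNA-seq of piPSCs with and without added IRF-1. Both groups were piPSCs made from porcine embryonic fibroblasts (PEFs) carrying an OCT4-tdTomato reporter. The fibroblasts had been infected with the lentiviral vectors FUW-OSKM, which encodes OCT4, SOX2, KLF4 and MYC, and FUW-M2rtTA. By the methods, the cells were grown with doxycycline, which switches the reprogramming cassette on, and with CHIR99021, PD0325901, human LIF and porcine LIF from conditioned medium.

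The overexpressing cells carried PB-CAG-IRF1-Flag, whose insert came from PEF cDNA, delivered with the PCAGPBase transposase. The control cells carried PB-CAG-Flag, and the cells were selected with puromycin. Which stable line gave each library is not stated, and the labels do not say that replicates were separate cultures. The genotype label reads IRF-1 overexpression for all 4 RNA-seq libraries, and the library titles carry a number and no condition. The groups therefore rest on a figure legend of the article and not on the labels, with replicates 1 and 3 as overexpressing and replicates 6 and 8 as controls. The growth label names another medium, LCDMV, than the methods do, and which one applied cannot be told apart here. The article calls the cells compared by RNA-seq by a name that includes doxycycline (DOX). With the label in conflict, it is not settled that doxycycline was present in these libraries.

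The libraries held 24923319 and 20858333 counted reads for overexpressing replicates 1 and 3, and 15925429 and 17097669 for control replicates 6 and 8. A single read was worth between 0.0401 and 0.0628 CPM (counts scaled to a common library size), so low counts carry a wide error. Correlation of log2 CPM over genes was 0.99 for the overexpressing pair and 0.985 for the control pair, and ran from 0.898 to 0.939 for pairs from different groups. Genes are not independent samples, so these values describe likeness of libraries and are not a test. All p-values below measure only the spread between these 4 samples, which may be technical. With 2 libraries against 2, the smallest p that exchanging group labels can give is 0.333.

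Levels are given as FPKM, which here is CPM scaled by TMM factors and divided by the exon length in kilobases, and is the scale on which levels of genes are compared. For summed lists, the gene named as having the most reads is that with the highest CPM on average over the 4 libraries, which also depends on its length. A gene was called changed where the adjusted p was under 0.05 and the fold change, overexpressing over control, reached 1 in size on the log2 scale. Of 13250 genes tested, 1141 were called higher and 1410 lower by the quasi-likelihood test of edgeR, adjusted by Benjamini-Hochberg, which is 8.61% and 10.6% of the genes. At adjusted p alone the shares were 13.9% higher and 15.5% lower. DESeq2 called 1073 of all genes higher (8.10%) and 1324 lower. No share over all genes was taken at an unadjusted p, so counts of a list at that limit stand without a background. The calls dropped to 733 higher and 787 lower without overexpressing replicate 1. The median log2 fold change of all genes was -0.0016, as the scaling of the libraries sets it close to 0.

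IRF1 itself was read first, because the labels do not give the groups. IRF1 counts were 8206 and 5485 in the overexpressing libraries against 55 and 56 in the controls. The groups did not overlap and the difference was far larger than that between replicates. The log2 fold change of IRF1 was 6.46 (standard error, SE, 0.21; adjusted p = 3.65e-05 in edgeR, higher in 2 of 2 libraries), and between 6.30 and 6.62 with each library left out. The counts do not separate endogenous IRF1 from the added cDNA.

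Before any comparison of groups, the genes differed among themselves in level by orders of magnitude in the control cells. In FPKM, mean ± standard deviation of 2 libraries, LIN28A stood at 718 ± 142, HMGA1 at 542 ± 24.5, IGF2BP1 at 80.4 ± 11.4 and IGF2BP3 at 23.8 ± 0.458. MYCN followed at 20.04 ± 9.995, HMGA2 at 12.5 ± 2.42 and LIN28B at 12.1 ± 0.385. MYC at 5.09 ± 2.92, MAX at 3.72 ± 0.563 and MYCL at 3.67 ± 0.579 were the lowest of the 10. Library by library, LIN28A, HMGA1, IGF2BP1 and IGF2BP3 were separated from the next gene above or below, except that IGF2BP3 overlapped MYCN. Neighbours from MYCN to LIN28B overlapped, LIN28B and MYC did not, and MYC, MAX and MYCL overlapped. LIN28A ranked at percentile 99.5 of the tested genes in control cells and MYC at 42.1. The plot of the level of each gene per library shows this order.

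**Figure D1:**
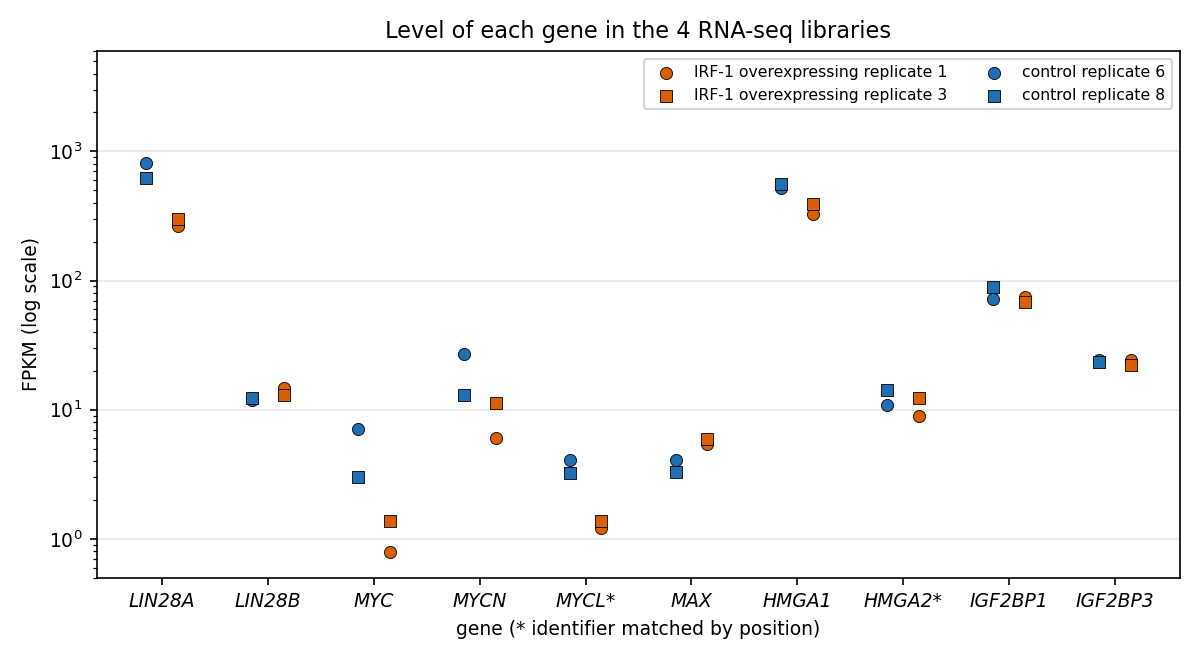
Level of each of the 10 genes in FPKM (log scale) in the 4 libraries, with circles and squares for the replicates, orange for IRF-1 overexpressing and blue for control cells. The controls stand above the overexpressing libraries for LIN28A, MYC, MYCN, MYCL and HMGA1, and below them for MAX and LIN28B.

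The order in the overexpressing cells was not the same. HMGA1, at 359 ± 48.5 FPKM, stood above LIN28A at 283 ± 25.7 there, and the libraries of these genes did not overlap. IGF2BP1 (71.6 ± 4.21), IGF2BP3 (23.2 ± 1.37), LIN28B (14.0 ± 1.2) and HMGA2 (10.6 ± 2.5) followed without overlap between neighbours. MYCN (8.65 ± 3.7) overlapped HMGA2, and MAX (5.69 ± 0.315) lay just under MYCN without overlap. MYCL (1.30 ± 0.124) and MYC (1.09 ± 0.41) overlapped each other at the bottom. The change of rank between LIN28A and HMGA1 was not tested. That rank also depends on exon length, 618 bases for LIN28A and 2937 for HMGA1. In CPM, HMGA1 was above LIN28A in both groups. HMGA1 stood at 954 and 1155 CPM against 164 and 186 for LIN28A in the overexpressing libraries. In the controls HMGA1 stood at 1541 and 1642 CPM against 506 and 382 for LIN28A.

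Of the 8 genes matched by name, 3 were called lower in the overexpressing cells (LIN28A, MYC and MYCN) and 0 higher. At an unadjusted p under 0.05, 1 of the 8 was higher (MAX), and DESeq2 called 0 higher and 3 lower. At adjusted p alone, 1 of the 8 was higher and 4 were lower, where 13.9% and 15.5% of all tested genes were. Without overexpressing replicate 1, and likewise without control replicate 6, the lower calls among the 8 dropped to 1, which was LIN28A. Of the 2 genes matched by position, MYCL was called lower. These are small numbers beside a background in which 10.6% of all tested genes were called lower, so each gene is described for itself below.

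LIN28A recruits terminal uridylyltransferases that tag the let-7 precursor for decay, and LIN28B holds primary let-7 transcripts back in the nucleus. The paralogs are often expressed in different cells. Their levels are therefore given separately and then as a ratio. The LIN28A transcript model in the table is 618 bases long, and reads outside it were not counted. Its length is a multiple of 3, which does not show whether it holds coding sequence alone.

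LIN28A stood at 265 and 301 FPKM in overexpressing replicates 1 and 3 and at 818 and 617 FPKM in control replicates 6 and 8. Both controls were high and both overexpressing libraries were lower, with no overlap. LIN28A fell by 1.34 on the log2 scale (SE 0.172, adjusted p = 0.00146 in edgeR, lower in 2 of 2 libraries). With each library left out, the log2 fold change of LIN28A lay between -1.53 and -1.12 and the adjusted p reached at most 0.0213, so LIN28A was called in each of these 4 fits. LIN28A nevertheless stayed among the abundant mRNAs, at percentile 98.8 of the tested genes in the overexpressing cells.

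LIN28B stood at 14.8 and 13.1 FPKM in the overexpressing libraries against 11.9 and 12.4 FPKM in the controls. The overexpressing libraries were slightly above the controls, without overlap. Its log2 fold change of 0.20 (SE 0.14) did not pass the test (adjusted p = 0.328 in edgeR), which does not show that LIN28B was the same in both groups. The ratio of LIN28A to LIN28B in FPKM was 17.9 and 23.0 in the overexpressing libraries against 68.9 and 49.7 in the controls. LIN28B made up 5.29% and 4.17% of the summed LIN28 FPKM in the overexpressing libraries, against 1.43% and 1.97% in the controls. LIN28A was thus the more abundant paralog in FPKM in all 4 libraries.

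The neighbours of LIN28 in let-7 processing include the nuclear and cytoplasmic cleavage enzymes DROSHA and DICER1, the exonuclease DIS3L2 and RNA-binding proteins that work with LIN28. MSI1 is a neural RNA-binding protein that cooperates with LIN28, TRIM71 is a let-7-regulated ubiquitin ligase and mRNA repressor of embryonic cells, and PRKRA is a partner of DICER1. Of 26 genes listed for let-7 processing and LIN28 cofactors, 20 were found and tested, with 0 called higher and 2 lower, where 10.6% of all tested genes were called lower. At an unadjusted p under 0.05, 2 were higher and 4 lower, and DESeq2 called 0 higher and 2 lower. The median log2 fold change was 0.13, and 13 of 20 genes lay above 0, but without control replicate 6 these were 0.026 and 10. Without overexpressing replicate 1, overexpressing replicate 3 or control replicate 6, 1 gene was called lower instead of 2.

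MSI1 counts were 1713 and 2016 in the overexpressing libraries against 3462 and 2907 in the controls, without overlap. MSI1 fell by 1.23 on the log2 scale (adjusted p = 0.00496 in edgeR), and came to -0.995, just short of the fold limit, without overexpressing replicate 1. TRIM71 stood at 7.72 and 6.90 FPKM in the overexpressing libraries against 16.9 and 12.7 FPKM in the controls, again without overlap. TRIM71 fell by 1.01 on the log2 scale (SE 0.2, adjusted p = 0.00818 in edgeR). It was close to the fold limit, at -0.94 without overexpressing replicate 3 and -0.79 without control replicate 6, where the call was lost. PRKRA and DROSHA, named after their values were seen, passed the adjusted p alone, with log2 fold changes of -0.69 (adjusted p = 0.0432) and 0.54 (adjusted p = 0.0491). PRKRA lost this without overexpressing replicate 1 (-0.45) or control replicate 6 (-0.57), and DROSHA without overexpressing replicate 1 (0.45), overexpressing replicate 3 (0.63) or control replicate 6 (0.37). DROSHA also missed it when libraries were scaled by upper quartile or by their totals, with an adjusted p of up to 0.0642 over the other scalings, filters and DESeq2, which began at 0.0132. DICER1 and DIS3L2 were also named outside the rule for naming genes. DICER1 had a log2 fold change of 0.02 with overlapping groups (adjusted p = 0.922), and DIS3L2 one of -0.29 (adjusted p = 0.212). The mature let-7 RNAs were not measured, since the libraries were made from polyadenylated RNA.

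HMGA1 and HMGA2 are small proteins that bend AT-rich DNA and open chromatin, and IGF2BP1 and IGF2BP3 bind mRNAs in the cytoplasm and protect them from decay. They are oncofetal genes, high in embryos and tumors and low in most adult tissues. HMGA2 and the IGF2BP genes carry let-7 sites. Activity of let-7 was not tested.

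HMGA1 stood at 325 and 393 FPKM in the overexpressing libraries against 525 and 559 FPKM in the controls. Both controls were above both overexpressing libraries, without overlap. The log2 fold change of HMGA1 was -0.59 (SE 0.139), which passed the adjusted p (0.016 in edgeR) and not the fold limit. Without overexpressing replicate 1 it was -0.46 at an adjusted p of 0.214, the highest over the fits with a library left out, which began at 0.00819. HMGA2, matched by position, stood at 8.88 and 12.4 FPKM in the overexpressing libraries against 10.8 and 14.2 FPKM in the controls. The groups of HMGA2 overlapped, and its log2 fold change of -0.24 (SE 0.212) did not pass (adjusted p = 0.445). The ratio of HMGA1 to HMGA2 in FPKM was 36.6 and 31.7 in the overexpressing libraries against 48.5 and 39.3 in the controls.

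IGF2BP1 stood at 74.6 and 68.6 FPKM in the overexpressing libraries against 72.3 and 88.4 FPKM in the controls, with overlap. Its log2 fold change was -0.17 (SE 0.154, adjusted p = 0.459 in edgeR). IGF2BP3 stood at 24.2 and 22.3 FPKM in the overexpressing libraries against 24.1 and 23.4 FPKM in the controls, also with overlap. Its log2 fold change was -0.03 (SE 0.136, adjusted p = 0.882), and it turned to 0.026 without overexpressing replicate 3. For both genes the standard error sets how small a difference could have been seen. The third paralog IGF2BP2, chosen as their relative, stood at 18.95 and 19.2 FPKM in the overexpressing libraries against 28.2 and 22.7 FPKM in the controls. IGF2BP2 did not overlap between groups, but its log2 fold change of -0.41 did not pass (adjusted p = 0.0829). IGF2BP1 exceeded IGF2BP3 by a ratio in FPKM of 3.08 and 3.08 in the overexpressing libraries against 3.002 and 3.77 in the controls.

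Among 31 relatives of the HMGA and IGF2BP genes and oncofetal genes, 25 were found and 22 tested, with 0 called higher and 3 lower, where 10.6% of all tested genes were called lower. Before adjustment, 3 were higher and 7 lower at p under 0.05, and DESeq2 called 0 higher and 3 lower. The median log2 fold change was -0.22 and 6 of 22 lay above 0. The median depended on the libraries, at -0.077 without overexpressing replicate 1, -0.34 without overexpressing replicate 3 and -0.073 without control replicate 8. The genes called lower were TRIM71, DLK1, which encodes a Notch-like ligand of fetal tissue, and TPBG, which encodes the trophoblast glycoprotein 5T4. DLK1 counts were low, 46 and 18 in the overexpressing libraries against 70 and 113 in the controls, and did not overlap. DLK1 fell by 1.99 on the log2 scale (adjusted p = 0.0152 in edgeR), with -1.56 (adjusted p 0.073) without overexpressing replicate 3 and -2.65 without overexpressing replicate 1. TPBG counts were 1096 and 1119 in the overexpressing libraries against 2082 and 1101 in the controls. TPBG was at the limits, with a log2 fold change of -1.002 (adjusted p = 0.048), and lost its call without overexpressing replicate 1 (-0.86), overexpressing replicate 3 (-1.15) or control replicate 6 (-0.36). Without overexpressing replicate 3 the list held 0 lower calls by edgeR, without overexpressing replicate 1 it held 2, and without control replicate 6 it held 1.

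Known let-7 targets were then read as a wider list that includes LIN28A, LIN28B, the MYC family, HMGA2 and IGF2BP genes. Such mRNAs carry let-7 sites, mostly in their 3' untranslated regions, and many encode growth factors, receptors and cell cycle proteins. Of 51 genes listed, 49 were found and 48 tested, with 1 called higher and 8 lower, where 8.61% and 10.6% of all tested genes were called. At adjusted p alone, 2 were higher and 14 lower, where 13.9% and 15.5% of all tested genes were, and DESeq2 called 2 higher and 8 lower. The median log2 fold change was -0.20, with 17 of 48 genes above 0, beside -0.0016 over all tested genes, and it was -0.13 without control replicate 6. The lower calls of the list were fewer without overexpressing replicate 1, also at adjusted p alone, and without control replicate 6. Lower calls over all tested genes fell in these fits as well. The higher calls came to 3 without overexpressing replicate 3 and to 2 without control replicate 6. Of the 8 lower calls, 4 were LIN28A, MYC, MYCN and MYCL, so the count is not separate from theirs. MYCL and HMGA2, matched by position alone, are counted here as found and tested.

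IRS2, which encodes an adaptor of the insulin and IGF1 receptors, had counts of 437 and 299 in the overexpressing libraries against 29 and 22 in the controls. It rose, with a log2 fold change of 3.36 (SE 0.32, adjusted p = 0.000556 in edgeR), against the direction of the other called genes of the list. THBS1, which encodes the matrix protein thrombospondin, had counts of 99 and 136 in the overexpressing libraries against 1539 and 315 in the controls. The controls of THBS1 differed widely from each other, although the groups did not overlap. THBS1 fell by 3.47 on the log2 scale (SE 0.718, adjusted p = 0.00997), with -1.78 without control replicate 6, -4.23 without control replicate 8 and a lost call without overexpressing replicate 1 (-3.15, adjusted p 0.0654). PRTG, which encodes a cell surface protein of the early embryo, had counts of 1131 and 909 in the overexpressing libraries against 2509 and 3753 in the controls. PRTG fell by 2.07 on the log2 scale (adjusted p = 0.000421). NR6A1, an orphan nuclear receptor of embryonic cells named after its values were seen, fell by 2.04 (adjusted p = 0.000999). TRIM71 was the remaining lower call of this list.

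**Figure D2:**
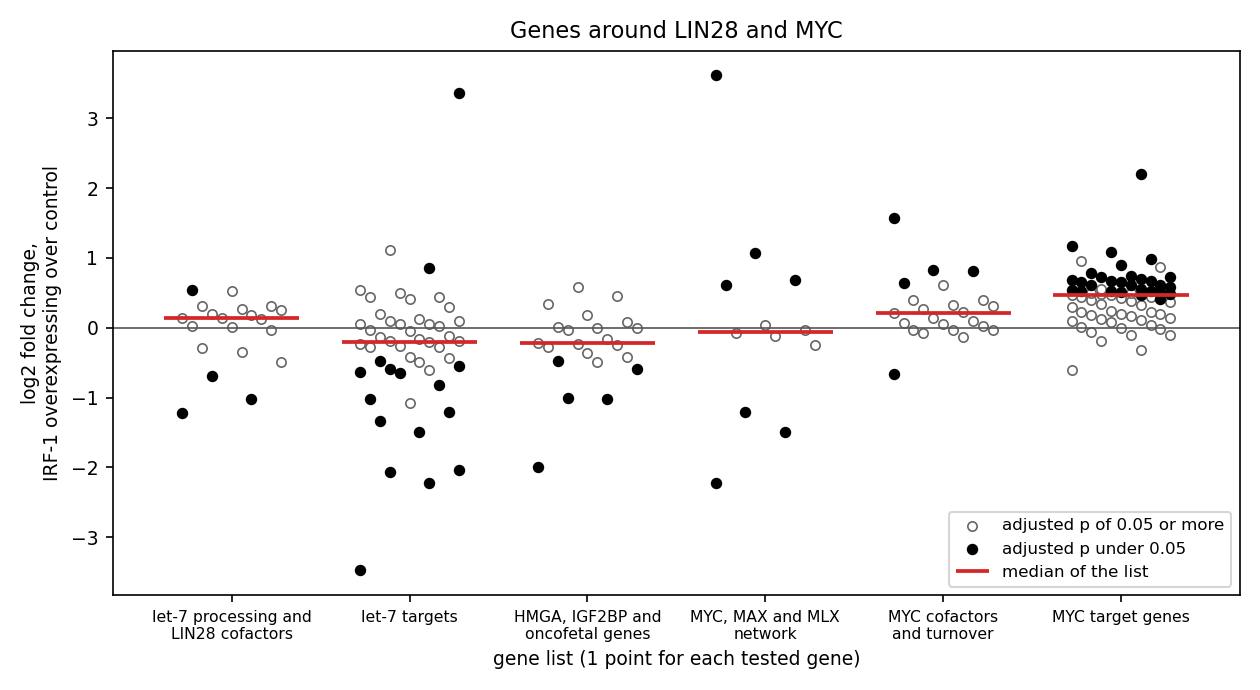
Log2 fold change, IRF-1 overexpressing over control, of each tested gene (1 point) in 6 gene lists around LIN28 and MYC, with filled points at an adjusted p under 0.05 and a red line at the median. The MYC target genes lie mostly above 0, with a median of 0.47, and the let-7 targets have a median of -0.20.

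MYC, MYCN and MYCL are basic helix-loop-helix leucine zipper transcription factors that bind E-box sequences with MAX. MYC acts in many dividing cells, MYCN mostly in embryonic and neural progenitors, and MYCL is the least active of the family in transformation. In these piPSCs MYC may have a further source, the reprogramming cassette, if doxycycline was present. The MYC model in the table is 1359 bases long, again a multiple of 3, which does not show what it holds. If it includes the coding sequence, cassette reads from there could be counted in it.

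MYC counts were 27 and 39 in the overexpressing libraries against 152 and 72 in the controls, which is 0.799 and 1.38 FPKM against 7.15 and 3.03 FPKM. Both controls were above both overexpressing libraries, but the controls differed from each other by more than the overexpressing libraries did in FPKM. MYC fell by 2.23 on the log2 scale (SE 0.512, adjusted p = 0.0151 in edgeR, lower in 2 of 2 libraries). The call was lost without overexpressing replicate 1 (-1.87, adjusted p 0.108) and without control replicate 6 (-1.48, adjusted p 0.0566), while the adjusted p over the 4 fits started at 0.00256. MYC ranked at percentile 18.5 of the tested genes in the overexpressing cells.

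In these counts, reads of MYC cannot be divided between the endogenous gene and the cassette, and the part of each was not tested here. The other cassette factors give some context. POU5F1, matched by position, which encodes OCT4, had counts of 0 and 0 in the overexpressing libraries against 0 and 1 in the controls, so cassette OCT4 was not seen at this identifier. SOX2, also by position, had counts of 5395 and 4700 in the overexpressing libraries against 3652 and 3179 in the controls, with overlapping CPM. The log2 fold change of SOX2 was 0.09 (adjusted p = 0.697 in edgeR). Its sign depended on the libraries, from -0.072 to 0.286 with a library left out. KLF4 stood at 25.7 and 24.6 CPM in the overexpressing libraries against 35.5 and 30.9 CPM in the controls, without overlap, and its log2 fold change of -0.40 did not pass (adjusted p = 0.119). POU5F1, SOX2 and KLF4 were chosen after the values of MYC were seen.

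MYCN stood at 6.04 and 11.3 FPKM in the overexpressing libraries against 27.1 and 13.0 FPKM in the controls. The groups did not overlap, but the lower control came close to the higher overexpressing library. MYCN fell by 1.21 on the log2 scale (SE 0.383, adjusted p = 0.0485 in edgeR), just inside the threshold. The call was lost without overexpressing replicate 1 (-0.83, adjusted p 0.249) and without control replicate 6 (-0.59, adjusted p 0.198), with adjusted p values from 0.00441 over these fits. It was also lost when genes were kept at 1 CPM or more in 2 libraries (adjusted p 0.0528, the highest over the other normalizations, filters and DESeq2, which began at 1.34e-05). MYCN shares 168 exon bases with the unnamed ENSSSCG00000033084 on the opposite strand, which had 0 counts in the 4 libraries. Since the strand setting of the counting is not given, reads of these bases cannot be told apart.

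MYCL, matched by position as ENSSSCG00000039761, had counts of 98 and 94 in the overexpressing libraries against 208 and 186 in the controls. In FPKM these are 1.21 and 1.38 against 4.07 and 3.26, with close replicates and no overlap. MYCL fell by 1.4998 on the log2 scale (SE 0.276, adjusted p = 0.00631 in edgeR). Without overexpressing replicate 1 it was -1.40 with the call lost (adjusted p 0.063), the highest adjusted p over fits that began at 0.00551.

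MAX is the shared partner that MYC proteins need to bind DNA, and MAX also pairs with repressors. MAX stood at 5.47 and 5.92 FPKM in the overexpressing libraries against 4.12 and 3.32 FPKM in the controls. Both overexpressing libraries were above both controls, without overlap. The log2 fold change of MAX was 0.61 (SE 0.173), which passed the adjusted p (0.0321 in edgeR) and not the fold limit. It missed the adjusted p without overexpressing replicate 1 (0.67, adjusted p 0.125), overexpressing replicate 3 (0.56, adjusted p 0.164) or control replicate 8 (0.47, adjusted p 0.0756), and passed without control replicate 6 (0.78, adjusted p 0.0143).

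By level, MYC, MYCN and MYCL summed to 8.05 and 14.0 FPKM in the overexpressing libraries against 38.3 and 19.3 FPKM in the controls. MYCN made up most of this sum in each library, and the ratio of MYCN to MYC was 7.56 and 8.17 in the overexpressing libraries against 3.79 and 4.28 in the controls. The summed MYC family over MAX was 1.47 and 2.37 in the overexpressing libraries against 9.31 and 5.80 in the controls, without overlap. This is a ratio of mRNA, and no test was made of it. Its size depends on exon lengths, with 7847 bases for MAX, which are the same in both groups. MAX protein and dimers were not measured. In bulk RNA, fewer cells with MYC family mRNA and less of it per cell cannot be told apart, which holds for all genes here.

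MAX has other partners that oppose MYC. MXD1, MXI1, MXD3 and MXD4 form repressive dimers with MAX in cells that stop dividing or differentiate, MNT is a more widely expressed repressor, and MGA joins MAX in a complex that silences germ cell genes. MLX pairs with MLXIP and MLXIPL, which sense glucose metabolites. Of 13 genes of this network, all were found and 12 tested, with 2 called higher and 3 lower (8.61% and 10.6% over all tested genes), and DESeq2 called 2 and 3. The 3 lower calls were MYC, MYCN and MYCL. MYCL was found by position alone and is included in these counts. EdgeR without overexpressing replicate 1 called 1 higher and 0 lower, and without control replicate 6 it called 1 higher and 1 lower.

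MXI1 had counts of 1061 and 540 in the overexpressing libraries against 40 and 53 in the controls. In FPKM these are 11.2 and 6.79 against 0.669 and 0.792, without overlap. MXI1 rose, with a log2 fold change of 3.61 (SE 0.31, adjusted p = 0.000421 in edgeR), and lay between 3.21 and 3.93 with each library left out. Within this network it was the gene with the largest fitted change. In FPKM, MXI1 was above MAX in both overexpressing libraries and below MAX in both controls.

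MLXIP stood at 84.8 and 69.3 CPM in the overexpressing libraries against 31.7 and 41.4 CPM in the controls, without overlap. MLXIP rose, with a log2 fold change of 1.07 (SE 0.185, adjusted p = 0.00467 in edgeR), and was under the fold limit without overexpressing replicate 1 (0.93) or control replicate 6 (0.90). MNT stood at 5.86 and 5.74 FPKM in the overexpressing libraries against 3.99 and 3.24 FPKM in the controls, without overlap. The log2 fold change of MNT was 0.68 (SE 0.189), which passed the adjusted p alone (0.0305). MNT missed it without overexpressing replicate 1 (0.67, adjusted p 0.168), overexpressing replicate 3 (0.70, adjusted p 0.119) or control replicate 8 (0.55, adjusted p 0.0792), with 0.0223 the lowest over these fits.

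The other MAX and MLX partners did not pass the test, which does not show that they were the same in both groups. MXD1 had a log2 fold change of -0.24 (adjusted p = 0.631 in edgeR), ranging from -0.63 to 0.29 with a library left out. MXD3 had -0.12 (adjusted p = 0.717), MXD4 -0.03 (adjusted p = 0.929), MGA -0.08 (adjusted p = 0.863) and MLX 0.03 (adjusted p = 0.904), and the groups of these 5 genes overlapped in FPKM. MXD4 was the most abundant of the repressors in FPKM, at 71.3 ± 6.53 in the overexpressing and 72.7 ± 13.4 in the control cells. MLXIPL, with counts of 6 and 11 in the overexpressing libraries against 3 and 7 in the controls, was too low to be tested. Some exons are shared: 258 bases of MXD1 with an unnamed gene on the same strand, 95 bases of MXD3 with PRELID1 and 373 bases of MLX with PSMC3IP, both on the opposite strand. Reads of those bases cannot be told apart.

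**Figure D3:**
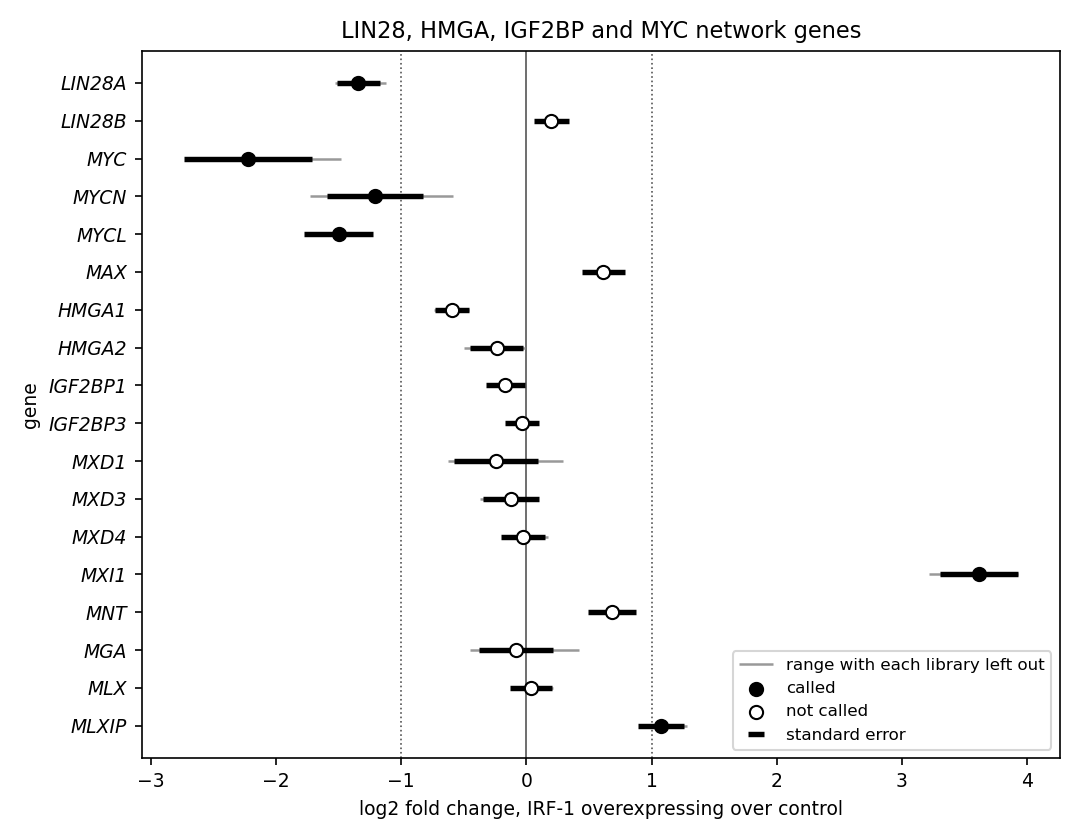
Log2 fold change, IRF-1 overexpressing over control, of the 10 genes and the MAX and MLX partners (1 gene per line), with black bars for the standard error and gray lines for the range with each library left out. Filled points passed both the adjusted p and the fold limit of 1, as LIN28A at -1.34 and MXI1 at 3.61 did.

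MYC protein depends on cofactors that load it on chromatin and on enzymes that set its turnover. TFAP4 is a transcription factor induced by MYC, USP36 and USP28 remove ubiquitin from MYC, FBXW7 is the ubiquitin ligase subunit that marks MYC for decay, and RUVBL1 is an ATPase bound by MYC. Of 24 genes listed as MYC cofactors and turnover genes, 23 were found and tested, with 1 called higher (TFAP4) and 0 lower, beside 8.61% and 10.6% of all tested genes. At an unadjusted p under 0.05, 6 were higher and 1 lower, and DESeq2 called 1 higher and 0 lower. The median log2 fold change was 0.21 (0.33 without control replicate 8), and 17 of 23 lay above 0. Without control replicate 8, edgeR called 2 higher.

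TFAP4 had counts of 1335 and 1154 in the overexpressing libraries against 254 and 355 in the controls, without overlap. TFAP4 rose, with a log2 fold change of 1.58 (SE 0.176, adjusted p = 0.000916 in edgeR), and lay between 1.43 and 1.75 with each library left out. At adjusted p alone, which 13.9% of all tested genes passed as higher and 15.5% as lower, USP36 (0.82), USP28 (0.81) and RUVBL1 (0.64) were also higher and FBXW7 (-0.67, adjusted p = 0.0212) lower. These genes were named after their values were seen. Each missed the adjusted p without overexpressing replicate 1 (USP36 0.83, USP28 0.61, RUVBL1 0.66, FBXW7 -0.68), and RUVBL1 (0.63) and FBXW7 (-0.64) also missed it without overexpressing replicate 3. MYC protein stability was not measured.

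MYC family proteins drive genes of nucleolar ribosome assembly, nucleotide synthesis and metabolism. A list of such target genes shows on the RNA level whether they moved with MYC, MYCN and MYCL. Other regulators act on these genes as well, so their levels are no measure of MYC activity. Of 76 target genes listed, 69 were found and 68 tested, and their summed CPM was 19820 and 20536 in the overexpressing libraries against 15749 and 17403 in the controls. NPM1, which encodes a nucleolar chaperone, had the most reads of them on average, and NCL exceeded it in overexpressing replicate 3.

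Few of the target genes passed both limits. Of the 68 tested, 3 were called higher (TERT, PUS1 and CAD) and 0 lower by edgeR, and DESeq2 also called 3 and 0. The 3 higher calls are 4.41% of the list, below the 8.61% of all tested genes. At adjusted p alone 29 (42.6%) were higher and 0 lower, beside 13.9% higher among all tested genes. Before adjustment, 37 were higher and 0 lower at p under 0.05, a limit at which no share over all genes was taken. The median log2 fold change was 0.47 and 60 of 68 (88.2%) lay above 0, where over all tested genes 49.9% did. The count at adjusted p alone rested on the libraries, in fits that hold 1 library in a group. Without overexpressing replicate 1, the share of the list that was higher fell below that of all genes in the same fit. Without each other library it was above that of all genes. The calls with the fold limit were 1 without overexpressing replicate 1 and 5 without control replicate 8, where 1 was called lower. The median moved less, between 0.37 and 0.52 over these 4 fits, and 58 to 61 genes lay above 0. Whether the list as a whole differed from other genes was not tested.

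PUS1, which encodes a pseudouridine synthase of transfer RNA, had counts of 1870 and 1557 in the overexpressing libraries against 504 and 597 in the controls. PUS1 rose, with a log2 fold change of 1.18 (SE 0.14, adjusted p = 0.00111 in edgeR), and lay between 1.14 and 1.22 with each library left out. CAD, which encodes the first enzymes of pyrimidine synthesis, had counts of 8239 and 6231 in the overexpressing libraries against 1832 and 3148 in the controls. CAD rose, with a log2 fold change of 1.09 (SE 0.208, adjusted p = 0.00724), and lost its call without overexpressing replicate 1 (1.02, adjusted p 0.0559) or control replicate 6 (0.81). TERT, which encodes the catalytic part of telomerase, had counts of 386 and 85 in the overexpressing libraries against 39 and 31 in the controls. The overexpressing libraries of TERT were far apart. Its log2 fold change of 2.21 (SE 0.613, adjusted p = 0.0308) was 0.94 (adjusted p 0.292) without overexpressing replicate 1, 1.98 (adjusted p 0.0811) without control replicate 8 and 2.86 without overexpressing replicate 3.

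The genes most like LIN28A across the 4 libraries were sought by Euclidean distance between log2(CPM + 1) profiles, each centred on its mean, among 3957 genes with a symbol and a mean of at least 50 CPM. The nearest were SHKBP1 (distance 0.0816), PAWR (0.12), EPHB4 (0.12), PTK7 (0.141) and DNMT3A (0.152). SHKBP1 binds an adaptor of receptor endocytosis, PAWR is a regulator of apoptosis, EPHB4 an ephrin receptor, PTK7 a receptor of planar cell polarity, and DNMT3A a DNA methyltransferase. Each was called lower, as follows from the choice by likeness to LIN28A, with log2 fold changes of -1.34, -1.47, -1.29, -1.35 and -1.22 in that order. DNMT3A lost its call without control replicate 6, at -0.994. PTK7 had counts of 2316 and 2444 in the overexpressing libraries against 4580 and 4241 in the controls. EPHB4 shares 378 exon bases with ZAN on the opposite strand, where reads cannot be told apart. With 4 libraries many genes have such a profile, and nothing about shared control follows from it.

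LIN28A is used for reprogramming beside other factors, and these were read as a short list. Of 8 other reprogramming factors, 6 were found and 4 tested, with 0 called higher and 2 lower, beside 8.61% and 10.6% of all tested genes. POU5F1 and SOX2 were found by position alone and are not in these counts, and SOX2, with a log2 fold change of 0.09, was not called. At an unadjusted p under 0.05, 0 were higher and 4 lower, and DESeq2 called 0 higher and 1 lower. ESRRB, an orphan nuclear receptor of naive pluripotent cells, had counts of 31 and 37 in the overexpressing libraries against 502 and 402 in the controls. ESRRB fell by 4.19 on the log2 scale (SE 0.308, adjusted p = 0.000246 in edgeR). KLF5, a Kruppel-like factor of early embryos, had counts of 8 and 12 in the overexpressing libraries against 20 and 37 in the controls. Its log2 fold change of -1.93 (adjusted p = 0.0336) lost its call without overexpressing replicate 1 (-1.55, adjusted p 0.213), overexpressing replicate 3 (-2.38, adjusted p 0.0574) or control replicate 8 (-1.51, adjusted p 0.144). The list then held 1 lower call in each of these 3 fits.

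The make-up of the libraries was read from marker lists, since LIN28A, MYC and HMGA1 are expressed unequally among cell types. The calls of each marker list stand beside 8.61% higher and 10.6% lower over all tested genes. Of 18 pluripotent markers 9 were found and 4 tested, with 0 higher and 3 lower (ESRRB, CDH1 and LIN28A itself), and 0 higher at an unadjusted p under 0.05 or by DESeq2. Their summed CPM was 199 and 271 in the overexpressing libraries against 786 and 645 in the controls, with the most reads on LIN28A among those found by name and PRDM14 and KLF17 at 0. LIN28A alone gave 164 and 186 CPM of the sums in the overexpressing libraries and 506 and 382 CPM in the controls. The sums are therefore not separate from the result for LIN28A. SOX2 is on the list but was found by position alone and is not in this sum. It stood at 217 and 226 CPM in the overexpressing libraries against 234 and 182 CPM in the controls. Of 22 fibroblast or feeder markers 20 were found and 13 tested, with 2 higher (1 without overexpressing replicate 1 or control replicate 8) and 7 lower. They summed to 1670 and 1463 CPM against 2761 and 2340 CPM, VIM had the most reads, and COL5A1, COL6A3 and LUM had 3 counts or fewer. Of 15 trophoblast markers 14 were found and 8 tested, with 1 higher and 5 lower, and summed CPM of 319 and 1173 against 15681 and 9620. KRT8 had the most reads, and CDX2, HAND1 and CGA were at 0.

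Of 14 primitive endoderm markers 11 were found and 5 tested, with 0 higher (0 also at an unadjusted p under 0.05 and by DESeq2) and 2 lower by edgeR. Their summed CPM was 496 and 512 in the overexpressing libraries against 898 and 951 in the controls, LAMA1 had the most reads, and FOXA2, AFP and TTR were at 0. Of 20 neural markers 17 were found and 15 tested, with 9 higher and 1 lower, and summed CPM of 929 and 477 against 315 and 309. STMN2 had the most reads on average, but TUBB3 exceeded it in overexpressing replicate 1, NES in control replicate 6 and MAP2 in control replicate 8. Mitochondrial genes held 8.62% and 7.57% of the counts in the overexpressing libraries against 6.29% and 6.68% in the controls, without overlap. Some markers of each list and the mitochondrial share thus differed between the groups, and their part in the result for LIN28A, MYC, MYCN and MYCL was not tested.

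Proliferation was read because MYC and LIN28A act on growth. Of 20 genes listed, 15 were found and tested, with 1 higher and 0 lower by edgeR (8.61% and 10.6% over all tested genes), 1 and 2 at an unadjusted p under 0.05, and 1 and 0 by DESeq2. The higher gene was CCNE2, which encodes a G1 cyclin, with a log2 fold change of 1.03 (adjusted p = 0.0323). CCNE2 lost its call without overexpressing replicate 1 (1.16, adjusted p 0.106), overexpressing replicate 3 (0.91, adjusted p 0.164) or control replicate 6 (0.74, adjusted p 0.0874), which left 0 calls. The median was 0.04 and changed sign with the libraries, at 0.16 without overexpressing replicate 1, -0.12 without overexpressing replicate 3, -0.056 without control replicate 6 and 0.15 without control replicate 8. The summed CPM of 2551 and 2923 in the overexpressing libraries overlapped 2540 and 3033 in the controls. Of 20 known IRF-1 targets, IRF1 itself among them, 19 were found and 17 tested, with 13 higher and 0 lower by edgeR, beside the same shares. Before adjustment, 15 were higher at p under 0.05 and 0 lower, and DESeq2 called 14 and 0. Their median log2 fold change was 1.71 and their summed CPM was 1405 and 1187 in the overexpressing libraries against 306 and 277 in the controls. Whether IRF-1 acts directly on LIN28A or a MYC gene was not tested, because the ChIP libraries were not analysed.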

How the data were processed

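RNA-seq counts per gene of 4 libraries were taken as deposited. By the authors' notes, reads were trimmed with trim_galore, aligned to Sus scrofa 11.1 with HISAT2 2.0.4 and counted with featureCounts 1.6.4. The methods also name htseq-count. Neither the strand setting nor the release of the annotation is given, nor how reads with several hits were treated. The labels do not give the groups, since the titles carry a number alone, so libraries were grouped by a figure legend of the article that names these numbers. Members and gene lists were chosen with earlier results of these data known.

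Counts were fitted in R 4.3.3 with edgeR 4.0.16 (filterByExpr by group, TMM factors between 0.982 and 1.02, common dispersion 0.0313, quasi-likelihood F-test, Benjamini-Hochberg adjustment over 13250 genes). Calls needed an adjusted p under 0.05 with a change of 1 or more, up or down, on the log2 scale. Each standard error was the size of the log2 fold change over the square root of F. CPM used TMM-scaled totals, and FPKM divided CPM by the exon length of the table in kilobases. The pseudocount for likeness of profiles was 1. The statistics were tested on simulated data.

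Genes named were IRF1, the 10 genes, the MAX and MLX network, and from each other list at most 3 called genes with the largest and 3 with the smallest log2 fold change, plus the 5 genes nearest to LIN28A. Other genes with values were chosen after values were seen. The lists were let-7 processing and LIN28 cofactors, let-7 targets, MYC network, MYC cofactors and turnover, MYC target genes, HMGA and IGF2BP relatives with oncofetal genes, other reprogramming factors, 5 cell type marker lists, proliferation and IRF-1 targets. No set test was made.

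Alternatives were RLE, upper quartile or total scaling, no filter, at least 1 CPM in 2 libraries, DESeq2 1.42.0, adjusted p alone, and leaving out each library. The 4 ChIP libraries were left out because no binding was compared. Plots used matplotlib 3.10.9 and tables numpy 2.4.6 and pandas 2.3.3 in Python 3.11.15.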

Additional observations from a re-analysis of the deposited data

How the results depend on the processing

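No paired analysis was possible because the RNA-seq groups share no replicate number. On leaving out a library, an arm held 1 library, assumed to vary like the other group, and genes were kept as in the filter on all 4. These fits gave 733 to 1124 genes higher (1141 with all) and 787 to 1500 lower (1410). The lower calls among the 8 genes matched by name ran from 1 to 3 (3). For let-7 targets the calls ran from 1 to 3 higher (1) and 4 to 10 lower (8), for the MYC network 1 to 2 higher (2) and 0 to 3 lower (3), for MYC cofactors 1 to 2 higher (1), for MYC target genes 1 to 5 higher (3) and 0 to 1 lower (0). For let-7 processing they ran from 1 to 2 lower (2), HMGA and oncofetal genes 0 to 3 lower (3), other reprogramming factors 1 to 2 lower (2), fibroblast markers 1 to 2 higher (2) and proliferation 0 to 1 higher (1). Log2 fold changes ran from -2.72 to -1.48 for MYC, -1.73 to -0.59 for MYCN, -1.65 to -1.33 for MYCL and -0.089 to 0.026 for IGF2BP3, which reversed to 0.026 without overexpressing replicate 3. With adjusted p alone, 1842 genes were higher, and the counts were 1 higher for the named genes, 1 higher for let-7 processing, 2 higher and 14 lower for let-7 targets, 4 higher for the MYC network, 4 higher and 1 lower for MYC cofactors, 29 higher for MYC target genes, 5 lower for HMGA and oncofetal genes, 2 lower for neural markers and 1 lower for proliferation. Without a filter, let-7 targets had 2 higher, let-7 processing 1 lower and HMGA and oncofetal genes 1 lower. DESeq2 gave 2 higher let-7 targets and 1 lower reprogramming factor. MYCN lost its call at 1 CPM or more in 2 libraries (-1.21, adjusted p 0.0528). The cause of these changes was not tested.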
